A study of Rattus norvegicus with 6 samples.

Results

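The genes described here are 35 genes of the endoplasmic reticulum (ER) stress response and of the integrated stress response, chosen by name as members of these pathways, with earlier results of these data known. For each name, the row of the deposited gene table with that symbol was taken, with preference for a protein-coding row and then for the row with the most reads. All 35 genes were found among 43350 gene rows, of which 36501 carry a symbol. Of these 35 genes, 33 passed the filter for testing, a mean of 0.5 FPKM or more over the 6 libraries (FPKM, read fragments scaled to transcript length and to the depth of the library). Trib3 and Slc7a11 did not pass it. The rows of Hsp90b1, Pdia4 and Manf are joined in the table with another gene, AABR07056495, AABR07060522 and Rbm15b, so their reads cannot be separated from those of the partner.

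The study compared male Sprague-Dawley rats with a chronic constriction injury (CCI), in which the left sciatic nerve is tied loosely, with sham rats, in which the nerve is exposed and left untied. RNA of the ipsilateral L4-6 dorsal root ganglia (DRG), which hold the cell bodies of the sensory neurons together with their glia, was taken at day 11 and sequenced after removal of ribosomal RNA in 3 CCI and 3 sham libraries. The sample labels give the sham rats no treatment and speak of a pooled sample, whereas the methods describe 1 rat per sample, so that p-values measure the spread between these 6 libraries. The ganglion is a mixture of neurons whose axons were in the tied nerve and neurons whose axons were not, and in such bulk RNA fewer cells of a type and less RNA per cell cannot be told apart.

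When unfolded proteins gather in the ER, 3 membrane sensors respond: Ern1 (IRE1) splices the mRNA of Xbp1, Atf6 is cut to release a transcription factor, and Eif2ak3 (PERK) phosphorylates the translation initiation factor eIF2. Spliced Xbp1 and cleaved Atf6 raise chaperones of the ER lumen and the machinery that carries misfolded proteins out for degradation. Phosphorylated eIF2, which other kinases also produce when amino acids are short or during other stress, slows protein synthesis and favours translation of Atf4, whose targets make and import amino acids or adjust the response. The pathways have been studied in sensory neurons after nerve injury, and the sensors are controlled mainly at the protein level, which mRNA counts do not record.

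The libraries held 75423546 to 87615743 reads in gene rows. Markers of sensory neurons were all detected, with a summed level of 10107 to 10240 CPM (counts scaled to library size, with edgeR's TMM factors) in the CCI and 9834 to 11233 CPM in the sham libraries. At an unadjusted p under 0.05, 2 of these 12 genes (Prph and Tubb3) were higher in CCI and 3 (Trpv1, Nefh and Calca) lower. Over all rows tested, these shares were 5.57% and 5.18%. The groups did not overlap in 2 genes with CCI higher and 5 with CCI lower, beside 8.63% and 8.7% of all rows. None of the 12 passed the limits given below. Macrophage markers summed to 95.2 to 143 CPM in the CCI and 69.4 to 93.2 CPM in the sham libraries. At the limits given below, 4 of 8 (Cd68, Csf1r, Cx3cr1 and C1qa) were higher in CCI, beside 2.57% of all rows. Sham 1 stood apart in skeletal muscle markers, which summed to 396 CPM there. They summed to 12.2 CPM in sham 2, which lay within the CCI range of 8.90 to 24.2 CPM, and to 50.8 CPM in sham 3. All 7 tested muscle markers had a log2 fold change below 0. Of the 7, 5 were lower in CCI at the limits given below, beside 1.26% of all rows. Sham 1 also held the highest sum of erythrocyte markers, 155 CPM, against 46.0 to 84.0 CPM elsewhere. Of the T-cell list, Cd4 was higher in CCI at these limits, whereas Cd3e, Cd3d and Cd3g, which define T cells, had 0 to 15 reads in every library. Cd8a had 1, 4 and 19 reads in the CCI libraries and 0 in every sham library, and Cd2 had 8 to 27 reads. Neither Cd8a nor Cd2 passed the filter for testing. The genes of B and plasma cells had 0 to 70 reads except Sdc1, which many other cells express and which was higher in CCI. The part of these cells in the values below was not tested.

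No gene of the set passed the limits of the study, and the fitted differences between CCI and sham ganglia were below them in size for every tested gene. Of the 33 tested genes, 0 were higher and 0 were lower at the limits used by the study, an unadjusted p under 0.05 with a log2 fold change of 0.58 or more in either direction (edgeR's quasi-likelihood test). Over all 26663 rows tested, 2.57% were higher and 1.26% lower at these limits. At a Benjamini-Hochberg adjusted p under 0.05, again 0 of the 33 genes passed, against 0.0638% of all rows higher and 0.03% lower. At an unadjusted p under 0.05 without a limit on size, 4 genes were higher (Eif2ak3, Ppp1r15a, Vldlr and Slc3a2) and 3 were lower (Canx, Dnajb9 and Chac1), beside 5.57% and 5.18% of all rows. DESeq2 and limma on log2(FPKM + 0.1) also called 0 of these genes at the limits of the study and 0 at an adjusted p. Of all 26663 rows, DESeq2 called 754 higher and 360 lower at the limits, and 427 and 320 at an adjusted p under 0.05. Limma called 745 higher and 314 lower at the limits, and 13 and 5 at an adjusted p. At an unadjusted p under 0.05, DESeq2 and limma gave 6 and 7 genes of the set. In the fits that leave out 1 library, that number ranged from 1 without CCI 2 to 8 without sham 1. The CCI libraries all lay above the sham libraries in 3 genes and all below in 3, beside 8.63% and 8.7% of all rows, and overlapped with them in the other 27.

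The fitted log2 fold changes of CCI over sham ran from -0.45 for Canx to 0.32 for Ppp1r15a, with a median of -0.045, beside a median of 0.0055 over all rows. Of the 33, 15 were above 0 and 18 below. The 95% interval reached a median of 0.240 to either side of the estimate, against 0.433 over all rows, and lay wholly within 0.58 of 0 for 24 of the 33 genes, beside 47% of all rows. For those 24 genes a difference of the size that the study calls lies outside the interval. For the other 9 (Hspa5, Canx, Sdf2l1, Creld2, Manf, Edem1, Ppp1r15a, Chac1 and Ddit4) it does not.

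**Figure D1:**
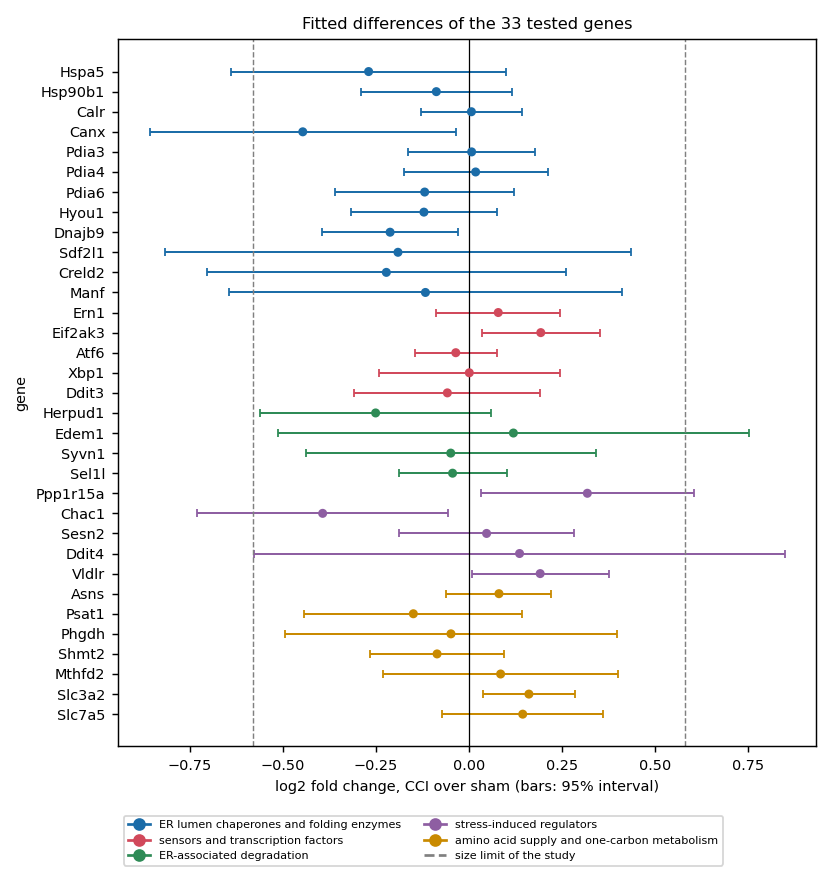
Fitted log2 fold changes of CCI over sham for the 33 tested genes (points) with 95% intervals (bars), coloured by role, with dashed lines at the size limit of the study. All points lie between -0.45 and 0.32, and 24 of the 33 intervals stay between the dashed lines.

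Compared per length of transcript, in FPKM, the set spanned a wide range of levels in the ganglion. The lectin chaperone Calr was the highest, with a mean of 168 FPKM over the 6 libraries, followed by the disulfide isomerase Pdia3 at 130.2, Calr's membrane-bound partner Canx at 109.5 and Hspa5 (BiP), the major ER chaperone, at 88.6 FPKM. Hsp90b1 (GRP94) had 59.4 and Pdia6 58.0 FPKM, and their library values overlap. The sensors were lower, with 15.3 FPKM for Atf6, 4.88 for Eif2ak3 and 2.37 for Ern1. Slc7a11 at 0.265 and Trib3 at 0.329 FPKM were the lowest. Of the 12 lumen genes, 8 lay above Atf6, the highest sensor. Dnajb9 at 13.99, the joined row of Manf and Rbm15b at 4.89, Creld2 at 3.99 and Sdf2l1 at 3.47 FPKM lay below it.

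**Figure D2:**
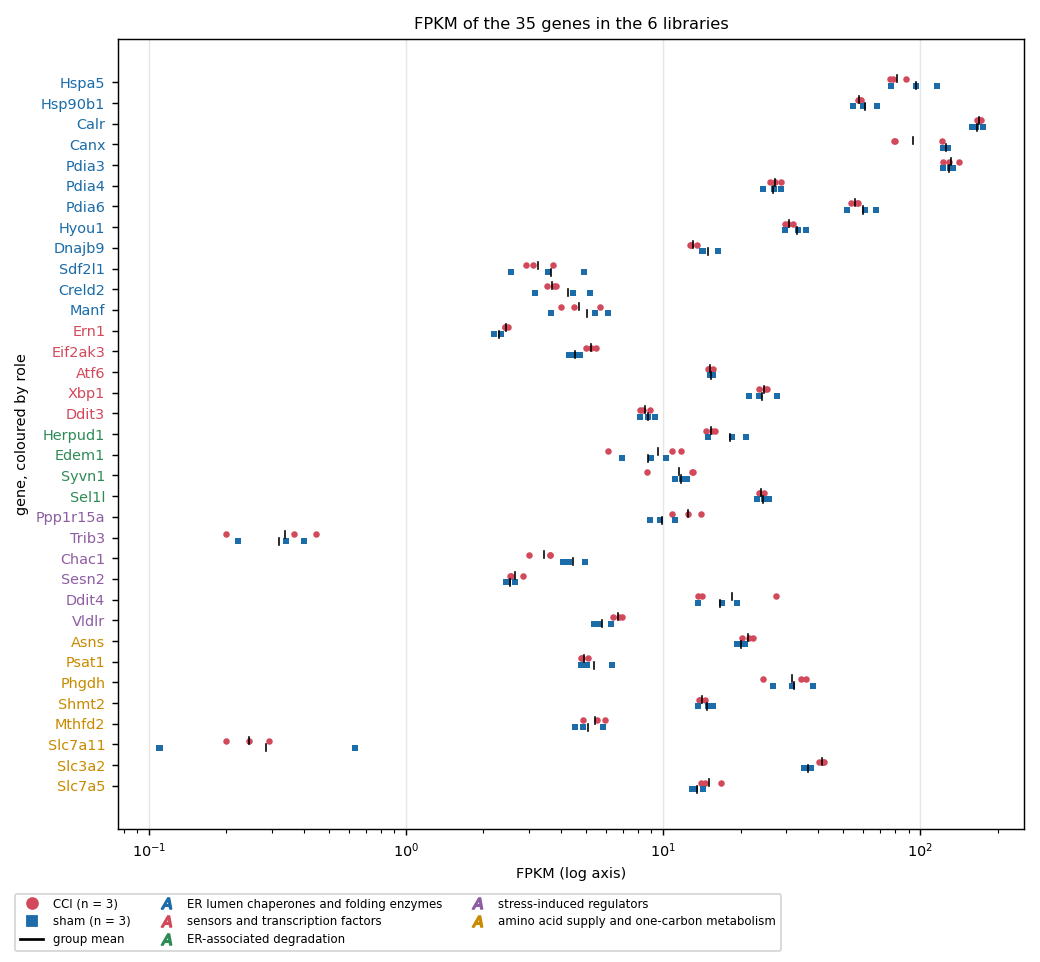
Deposited FPKM of each of the 35 genes (log axis) in the 3 CCI libraries (circles) and the 3 sham libraries (squares), with group means as black ticks and names coloured by role. Calr, Pdia3 and Canx sit highest, Trib3 and Slc7a11 lowest, and circles and squares overlap in most genes.

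The 12 chaperones and folding enzymes of the ER lumen had a median log2 fold change of -0.12, and 9 of them lay below 0. Canx, a membrane-bound chaperone counted among them that holds newly made glycoproteins until they are folded, had the lowest fold change of the set. Its gene row lies at chr10:35800942-35833861 in the genome that the authors name V101. It measured 663, 432 and 431 CPM in CCI 1, 2 and 3 and 701, 699 and 680 CPM in sham 1, 2 and 3. CCI 2 and CCI 3 lay far below all sham libraries, and CCI 1 lay close to them. The group means were 509 ± 134 and 693 ± 11.8 CPM (SD, n = 3), with a log2 fold change of -0.45 ± 0.17 (SE, edgeR, Benjamini-Hochberg adjusted p = 0.423). Without CCI 1 the log2 fold change was -0.68, with an adjusted p of 0.0167 (edgeR), and Canx then passed both limits. Leaving out any other library brought the unadjusted p of Canx to 0.05 or above.

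Dnajb9 (ERdj4), a co-chaperone of Hspa5 and a classical target of spliced Xbp1 (chr6:64165913-64170151 in V101), measured 34.5, 36.3 and 33.8 CPM in the CCI libraries and 44.0, 38.6 and 38.6 CPM in the sham libraries. Its groups did not overlap, and the difference was small, with a log2 fold change of -0.21 ± 0.076 (SE, edgeR, Benjamini-Hochberg adjusted p = 0.391). It stayed under an unadjusted p of 0.05 in 3 of the 6 fits that leave out 1 library.

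Hspa5 measured 221, 255 and 224 CPM in the CCI libraries and 223, 341 and 282 CPM in the sham libraries. Sham 1 lay with the CCI libraries and sham 2 above all others, so the groups overlapped, with a log2 fold change of -0.27 ± 0.15 (SE, edgeR, Benjamini-Hochberg adjusted p = 0.618). Hsp90b1, Pdia6 and Hyou1, a large chaperone and exchange factor for Hspa5, gave log2 fold changes of -0.088, -0.12 and -0.12. Creld2, Sdf2l1 and Manf, small ER-stress-induced proteins of the lumen, gave -0.22, -0.19 and -0.12, the last for the row joined with Rbm15b. For these 3 the intervals were wide, with a coefficient of variation of 24.8%, 32.5% and 25.6% in the sham group. Calr, Pdia3 and Pdia4 were the 3 lumen genes above 0, and all lay within 0.02 of it.

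Most lumen genes varied in the same order between the sham libraries. Relative to the mean of each gene over the 6 libraries, the 12 genes lay on average 0.23 higher on the log2 scale in sham 2, 0.11 higher in sham 3 and 0.13 lower in sham 1, whereas the CCI libraries lay at -0.037, -0.067 and -0.10. Sham 2 was the highest library for 8 of the 12 and sham 1 the lowest for 8. Canx and Dnajb9 went against this order, since sham 1 was their highest library and Canx was nearly level across the sham libraries. Sham 1 is also the library with the muscle and erythrocyte markers, and their part in its low lumen values was not tested. Without sham 1 all 12 lumen genes lay below 0 with a median of -0.21, and without sham 2, 8 lay below 0 with a median of -0.041. In both cases 0 of the 33 genes passed the limits of the study.

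Across all roles, sham 2 was the highest library for 14 of the 33 genes and sham 1 the lowest for 13. The coefficient of variation had a median of 4.84% in the CCI and 8.74% in the sham libraries, and 21 of the 33 genes varied more in sham. A further 16 ER chaperones and oxidoreductases that are not among the 35 genes had a mean deviation of -0.066 in sham 1, 0.043 in sham 2 and 0.022 in sham 3. In the CCI libraries it was -0.035, -0.016 and 0.052, so that CCI 3 was the highest library of this list and not sham 2.

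**Figure D3:**
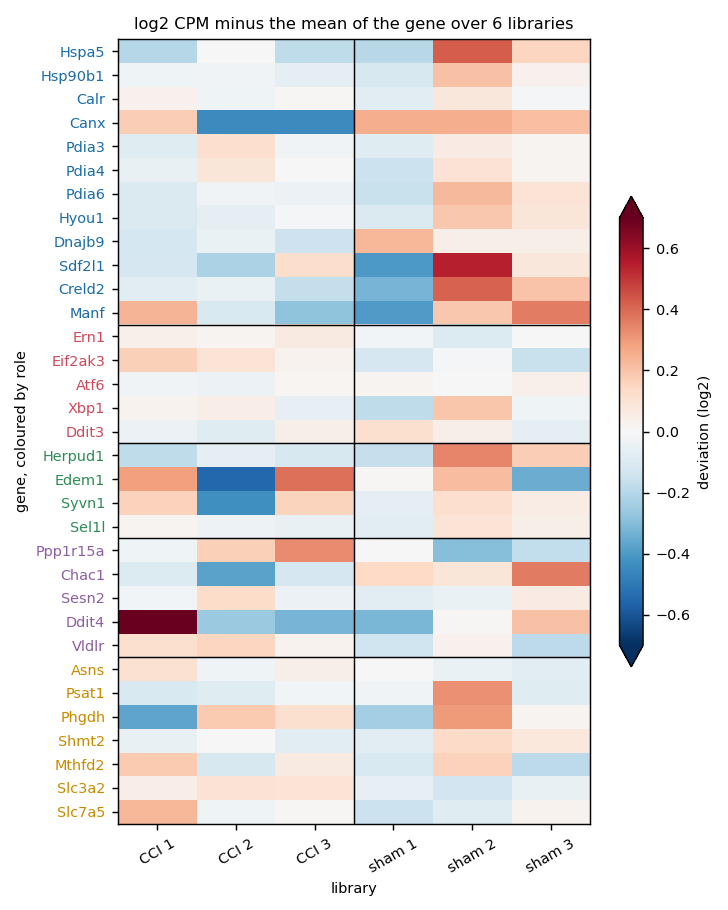
Heatmap of log2 CPM minus the mean of each gene over the 6 libraries, with libraries in columns and the 33 tested genes in rows, ordered and coloured by role (red above and blue below the mean of the gene). Within the lumen genes at the top, sham 2 is mostly red and sham 1 mostly blue. Canx is blue only in CCI 2 and CCI 3, and Ddit4 stands out in CCI 1.

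Promoter sequences are shown for some of the genes that followed this order between the sham libraries and carry a binding element of the response. Canx and Chac1, which have the lowest fold changes, are shown as well. The binding elements are short and well defined. The 300 bases from 250 before to 50 after each annotated start (RefSeq, GRCr8) were available for 30 of the 35 genes. They were searched on both strands for the ER stress response element ERSE (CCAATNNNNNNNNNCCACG), ERSE-II (ATTGG and CCACG with any 1 base between them), the UPRE (TGACGTGG) and the amino acid response element CARE (TGATGNAA). An ERSE was present in 6 of the 30 genes (20.0%), Calr, Canx, Creld2, Hsp90b1, Hspa5 and Xbp1, and in 0.0657% of all 33469 promoter windows. ERSE-II was present in Herpud1 and Hyou1 (6.67%, against 0.0508% of all windows). The UPRE letters were found in Hyou1 alone (3.33%, against 0.595%), where they overlap an ERSE-II. CARE was present in Chac1, Herpud1 and Trib3 (10.0%, against 3.98%). Shares of the 30 genes count a gene once for a match in any of its windows, and 2 genes have 2. Shares of all windows count single windows. The genes were chosen as members of the responses after which these elements are named, so the shares are a description and not a test. Of the lumen genes that followed the order between the sham libraries, Sdf2l1 and Pdia4 had a window without any of these elements. Hsp90b1 and Hyou1 followed it with an element and are not printed. A match describes letters only. Part of each window is printed 5′ to 3′ along the gene, with the matched element in capitals, read on either strand:
Hspa5 (chr3:38452958-38453006, + strand, ERSE): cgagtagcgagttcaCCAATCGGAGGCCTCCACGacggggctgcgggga
Canx (chr10:35158054-35158102, - strand, ERSE): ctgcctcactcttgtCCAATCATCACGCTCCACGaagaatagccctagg
Creld2 (chr7:121789224-121789272, + strand, ERSE): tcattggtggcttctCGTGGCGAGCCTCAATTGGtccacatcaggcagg
Calr (chr19:40213120-40213168, + strand, ERSE): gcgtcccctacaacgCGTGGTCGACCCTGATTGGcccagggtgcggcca
Xbp1 (chr14:84604543-84604591, + strand, ERSE): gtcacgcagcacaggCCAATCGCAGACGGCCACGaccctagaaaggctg
Herpud1 (chr19:10614806-10614906, - strand, CARE, then ERSE-II): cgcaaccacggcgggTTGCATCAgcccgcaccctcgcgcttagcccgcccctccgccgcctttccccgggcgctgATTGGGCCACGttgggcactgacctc
Chac1 (chr3:126795949-126795986, + strand, CARE): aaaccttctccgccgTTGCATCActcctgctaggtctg

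The ERSE of Hspa5 and the ERSE of Canx both read CCAAT, 9 bases and CCACG along the gene, but lie at different distances from the start, at -43 to -25 and -230 to -212. Those of Calr and Creld2 are in the opposite orientation. The 8 genes with an ERSE or ERSE-II had a median log2 fold change of -0.17, with 6 below 0, and the other 20 tested genes with a window had a median of 0.032, with 9 below 0. The 8 genes lay on average 0.26 above their mean in sham 2 and 0.11 below it in sham 1, as the lumen genes did, with which they share all but Xbp1 and Herpud1. Canx and Hspa5, which both carry the element, differed in their library patterns, since Canx was level across the sham libraries and Hspa5 was not.

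The sensors and their transcription factors had a median log2 fold change of 0.00025, and 1 of the 5 had an unadjusted p under 0.05. Eif2ak3 (PERK, chr4:98648545-98709694 in V101) measured 71.9, 68.4 and 65.1 CPM in the CCI and 59.1, 63.3 and 57.4 CPM in the sham libraries. All CCI libraries lay above all sham libraries, and the log2 fold change was 0.19 ± 0.066 (SE, edgeR, Benjamini-Hochberg adjusted p = 0.378), with a 95% interval from 0.033 to 0.35. It stayed under an unadjusted p of 0.05 in 2 of the 6 fits without 1 library. Ern1 also did not overlap, at 18.5, 18.3 and 18.8 CPM in CCI and 17.8, 16.9 and 18.0 CPM in sham, but the difference was 0.078 ± 0.069 on the log2 scale (SE). Atf6 was the steadiest gene of the set, with 122 to 127 CPM in CCI, 126 to 129 CPM in sham and a 95% interval from -0.15 to 0.074.

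Xbp1 measured 63.8, 64.7 and 60.2 CPM in CCI and 55.4, 71.8 and 61.5 CPM in sham, with group means of 62.9 CPM in both. The table counts genes, so spliced and unspliced Xbp1 mRNA were not distinguished. Ddit3 (CHOP), the transcription factor linked to cell death under lasting ER stress, measured 8.22 to 8.98 CPM in CCI and 8.36 to 9.42 CPM in sham, with a log2 fold change of -0.059 and a 95% interval from -0.31 to 0.19.

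None of the 4 genes of ER-associated degradation had an unadjusted p under 0.05. Herpud1, which assembles the degradation complex at the membrane, was nearest, with 29.8, 32.1 and 31.2 CPM in CCI and 30.1, 42.7 and 38.0 CPM in sham. As for Hspa5, sham 1 lay with the CCI libraries and sham 2 highest, and the log2 fold change was -0.25 ± 0.13 (SE, edgeR, Benjamini-Hochberg adjusted p = 0.573). The ubiquitin ligase Syvn1 (HRD1) and Edem1, a mannosidase-like protein that selects glycoproteins for degradation, were both low in CCI 2. Syvn1 measured 49.8 CPM there, 74.8 and 74.7 CPM in the other CCI libraries and 64.0, 72.8 and 69.5 CPM in sham. Edem1 measured 19.5 CPM there and 34.9 and 37.4 CPM in the other CCI libraries. In sham 1, 2 and 3 Edem1 measured 28.8, 33.2 and 22.5 CPM, so that sham 3 was near CCI 2. Sel1l, the partner of Syvn1, was not low in CCI 2, with 165 to 173 CPM in CCI and 162 to 183 CPM in sham.

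The stress-induced regulators held the largest differences of both directions apart from Canx. Ppp1r15a (GADD34, chr1:101511901-101514974 in V101), which directs the phosphatase that removes phosphate from eIF2 and so ends the response, measured 28.9, 33.1 and 37.0 CPM in CCI and 29.4, 23.9 and 26.1 CPM in sham. CCI 1 lay within the sham range and the other CCI libraries above it, with a log2 fold change of 0.32 ± 0.12 (SE, edgeR, Benjamini-Hochberg adjusted p = 0.418). Chac1 (chr3:111160205-111163425 in V101), an enzyme that degrades glutathione and is a target of the Atf4 branch, went the other way, with 6.27, 5.16 and 6.19 CPM in CCI and 7.41, 7.12 and 8.64 CPM in sham. Its groups did not overlap, with a log2 fold change of -0.39 ± 0.14 (SE, edgeR, Benjamini-Hochberg adjusted p = 0.392), and the row of Dll4 spans that of Chac1 on the same strand in the table. Without 1 library, Ppp1r15a kept an unadjusted p under 0.05 in 2 of 6 fits and Chac1 in 4 of 6 fits.

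Vldlr (chr1:245237112-245273684 in V101), a lipoprotein receptor raised by PERK signalling in other tissues, measured 59.1, 60.7 and 55.5 CPM in CCI and 49.6, 55.8 and 48.2 CPM in sham. Only CCI 3 and sham 2 overlapped, with a log2 fold change of 0.19 ± 0.077 (SE, edgeR, Benjamini-Hochberg adjusted p = 0.447). Of the 7 genes with an unadjusted p under 0.05 in edgeR, it was the one that DESeq2 did not place there, and it stayed there in 2 of the 6 fits without 1 library. Ddit4 (REDD1), an inhibitor of mTORC1, was high in CCI 1 alone, at 51.8 CPM against 26.7 and 25.6 CPM in the other CCI libraries and 25.7, 32.2 and 37.0 CPM in sham. Its log2 fold change of 0.14 turned to -0.27 without CCI 1. Sesn2, another inhibitor of mTORC1, measured 10.3 to 11.6 CPM in CCI and 10.1 to 11.1 CPM in sham. Trib3, a pseudokinase that damps the Atf4 branch, had only 32 to 76 reads per library in CCI and 42 to 72 in sham, and without the filter its log2 fold change was 0.040 with a 95% interval from -0.94 to 1.02, which holds changes of the size the study calls in both directions.

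Of the genes for amino acid supply and one-carbon metabolism, which are targets of Atf4, 1 of 7 tested had an unadjusted p under 0.05. Slc3a2 (CD98, chr1:224906554-224921092 in V101), the heavy chain that carries several amino acid transporters to the membrane, measured 90.7, 94.1 and 93.9 CPM in CCI and 84.5, 80.1 and 84.8 CPM in sham. The groups did not overlap and varied little, with a log2 fold change of 0.16 ± 0.052 (SE, edgeR, Benjamini-Hochberg adjusted p = 0.350) and a 95% interval from 0.036 to 0.28. It stayed under an unadjusted p of 0.05 in 3 of the 6 fits without 1 library. Its light chain Slc7a5 (LAT1) measured 66.0, 55.0 and 56.5 CPM in CCI and 50.6, 53.0 and 57.0 CPM in sham, which overlap, with a log2 fold change of 0.14 ± 0.090 (SE). Slc7a11 (xCT), the light chain for cystine import, had 158, 192 and 217 reads in CCI and 543, 87 and 90 reads in sham. Sham 1 again differed from both other sham libraries, here upward, and in the fit without the filter the interval of its log2 fold change ran from -1.84 to 1.40.

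None of the 5 enzymes of this role had an unadjusted p under 0.05. Asns, which makes asparagine and is among the best known Atf4 targets, measured 73.1 to 80.6 CPM in CCI and 71.1 to 74.8 CPM in sham, with a log2 fold change of 0.080 and a 95% interval from -0.061 to 0.22. A second row with the symbol Asns, which lies next to it on the chromosome, gave 0.014. The serine synthesis enzymes Phgdh and Psat1 gave -0.049 and -0.15, with Phgdh lowest in CCI 1 at 48.4 CPM and Psat1 highest in sham 2 at 19.8 CPM. The mitochondrial one-carbon enzymes Shmt2 and Mthfd2 gave -0.086 and 0.084. All 7 tested genes of this role had intervals within 0.58 of 0.

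Beyond the 35 genes, 94 genes of the same pathways passed the filter. Of these 94, 2 were higher (Atf3 and Aldh1l2) and 1 was lower (Pycr1) at the limits of the study, beside 2.57% and 1.26% of all rows, and their median log2 fold change was -0.019. Atf3, a transcription factor that the integrated stress response can raise and that injured sensory neurons are known to express, measured 117, 67.4 and 53.8 CPM in CCI and 6.32, 8.00 and 7.18 CPM in sham. Its log2 fold change was 3.47 ± 0.31 (SE, edgeR, Benjamini-Hochberg adjusted p = 0.0296), which makes it the only one of the 94 with an adjusted p under 0.05. It met the limits of the study without any 1 library, but its adjusted p (edgeR) then ranged from 0.00449 without CCI 1 to 0.151 without sham 3, and was over 0.05 without CCI 2 and without each sham library. Atf4, which shares many targets with it, measured 99.5, 105 and 113 CPM in CCI and 108, 131 and 115 CPM in sham, with a log2 fold change of -0.16 ± 0.089 (SE, edgeR, Benjamini-Hochberg adjusted p = 0.618). The intervals of Ddit3 and of the 7 tested amino acid supply and one-carbon genes, Asns among them, lay within 0.58 of 0. Those of Chac1 (-0.73 to -0.056), Ppp1r15a (0.031 to 0.60) and, without the filter, Trib3 (-0.94 to 1.02) did not. The part of the integrated stress response in the difference in Atf3 was not tested.

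Aldh1l2, a mitochondrial folate enzyme, measured 5.42, 3.61 and 1.77 CPM in CCI and 1.66, 1.96 and 1.55 CPM in sham. CCI 3 lay within the sham range, and the log2 fold change of 1.06 ± 0.40 (SE, edgeR, Benjamini-Hochberg adjusted p = 0.412) kept its call in 1 of the 6 fits that leave out 1 library, that without CCI 3. Pycr1, which makes proline, measured 1.33, 1.02 and 0.789 CPM in CCI and 1.98, 1.55 and 1.94 CPM in sham, with a log2 fold change of -0.80 ± 0.26 (SE, edgeR, Benjamini-Hochberg adjusted p = 0.352). Pycr1 kept its call without CCI 1 and without sham 2 and lost it in the other 4 fits.

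Of the 14 cytosolic tRNA synthetases, many of which are Atf4 targets, 11 lay below 0, with a median of -0.041. Aars1, Nars1, Sars1 and Iars1, named after their values were seen, were lower at an unadjusted p under 0.05, beside 5.18% of all rows. Their log2 fold changes were -0.17, -0.17, -0.16 and -0.26, and none of them passed the size limit of the study or an adjusted p. The groups did not overlap in 5 genes of this list with CCI lower and in 1 with CCI higher, beside 8.7% and 8.63% of all rows. The further transcription factors, the eIF2 kinases with eIF2B and the eIF2 phosphatase, the chaperones and the degradation genes had medians of 0.039, 0.054, 0.0065 and -0.033. The further amino acid genes and the further outputs of the response had medians of -0.094 and -0.13. Of the 94 genes, 77 had intervals within 0.58 of 0, beside 47% of all rows.

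**Figure D4:**
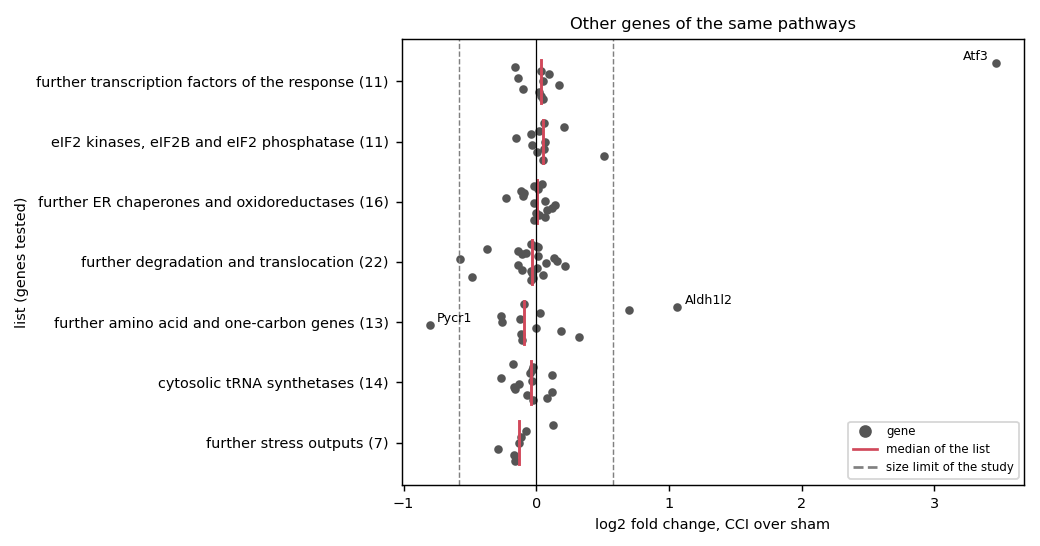
Log2 fold changes of CCI over sham (points) for the 94 tested genes of 7 further pathway lists, with the median of each list as a red line and dashed lines at the size limit of the study. Atf3 at 3.47 stands far to the right, only Atf3, Aldh1l2 and Pycr1 are named as called, and the list medians lie between -0.13 and 0.054.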

How the data were processed

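RNA of 6 DRG samples was analysed, 3 CCI and 3 sham, grouped by the labels. Per the submitters' processing notes, reads were aligned with HISAT2 2.0 to a rat genome named V101 and assembled with StringTie 1.3.0. The authors deposited whole-number counts per gene row without normalization, and FPKM values made from them. Whether counting used strand is not given in the sources used here. Gene coordinates are those of the table and promoter coordinates those of GRCr8, and 6 of the 35 genes overlap rows of other genes.

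Rows with a mean of 0.5 FPKM or more (26663) were tested with edgeR 4.0.16 (quasi-likelihood test, TMM factors of 0.988 to 1.01, no covariates), with Benjamini-Hochberg adjustment over all of them. CPM values use these effective library sizes, SE is the log2 fold change over the root of F, and intervals are 95%. The study's limits (p under 0.05, log2 fold change of 0.58 or more either way) were used. Genes and lists were chosen with earlier results of these data known. All 35 genes are named, and of the other genes those called, Atf3 and Atf4. Nploc4 and the 5 neuron markers and 4 tRNA synthetases, none of them called in the main fit, were named after their values were seen. Alternatives were DESeq2 1.42.0, limma 3.58.1 on log2(FPKM + 0.1) and log2(FPKM + 1), RLE factors, a filter at 1 FPKM, no filter, protein-coding rows, a replicate block and leaving out each library. The test was tried on simulated counts. R 4.3.3, Python 3.11.15 and RefSeq promoters of GRCr8 were used.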

Additional observations from a re-analysis of the deposited data

How the results depend on the processing

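The 33 genes gave 462 log2 fold changes under 14 alternatives. Of these, 440 kept direction and call, 1 (Canx without CCI 1) gained a call and 21, in 11 genes, changed sign, the largest to -0.27 for Ddit4. Xbp1, at 0.00025, gave -0.0019 with RLE factors and -0.0018 with DESeq2. Leaving out 1 library at a time, Xbp1 ranged from -0.083 to 0.11, Calr from -0.031 to 0.048, Pdia3 from -0.051 to 0.049, Pdia4 from -0.049 to 0.076, Sdf2l1 from -0.40 to 0.078, Manf from -0.31 to 0.045, Syvn1 from -0.14 to 0.12, Edem1 from -0.050 to 0.36, Sesn2 from -0.0063 to 0.089, Ddit4 from -0.27 to 0.31 and Phgdh from -0.17 to 0.10. The median of the 33 ranged from -0.083 to 0.037 in the same fits and was above 0 without sham 2.

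The number of the 33 genes called higher was 0 under every alternative. The number called lower, at the limits of the study and at an adjusted p, was 0 under every alternative except without CCI 1, and ranged from 0 to 1 over the fits that leave out 1 library. Of the 94 further genes, 1 was called higher with limma on log2(FPKM + 0.1), with limma on log2(FPKM + 1) and with the filter at 1 FPKM, and 1 to 2 without 1 library. With limma on log2(FPKM + 1), 0 were called lower (Pycr1 kept an unadjusted p under 0.05 but not the size), and 0 to 2 without 1 library.

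The replicate numbers do not mark shared animals, and deviations of same-numbered libraries correlated at -0.011, -0.022 and -0.055. With a replicate block, 0 of the 33 genes were called, their median was -0.043, 4 had an unadjusted p under 0.05 in place of 7, and 0 rows of all passed an adjusted p, Atf3 standing at 0.194 (edgeR), with 617 higher and 318 lower at the limits of the study.

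With 3 libraries per group, differences under about 0.24 on the log2 scale were within the interval for the typical gene of the set, and Trib3 and Slc7a11 had the fewest reads, 32 to 76 and 87 to 543 per library.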
